A study of Ovis aries with 8 samples.

Results

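The genes described here encode 3 hormones or hormone subunits of the pituitary gland: *CGA*, *TSHB* and *PRL*. They were taken by gene symbol or description from an Agilent sheep expression array, which carried 2 probes for *CGA*, 1 for *TSHB* and 2 for *PRL*, so 5 of 15008 probes and 3 of 860 named genes in all. The array was hybridised with RNA from 8 hypothalami of late-gestation sheep fetuses, 1 array per fetus. Of these, 4 fetuses had received 1 mg of estradiol-3-sulfate a day through a catheter in a lateral ventricle of the brain, fed by an implanted mini-pump, and 4 were co-twins, called vehicle here. Estradiol-3-sulfate is a conjugate of estradiol that steroid sulfatase can turn back into the free hormone. The labels differ on the length of infusion, 7 to 12 days in the design and 7 to 10 days in the treatment protocol, and on the controls, which are called untreated in the design and infused with saline in the protocol. All fetuses carried catheters from surgery at a gestational age of 120 to 127 days, and the hypothalami were collected at 130 to 134 days. The RNA of both groups had been stored for 7 years. The 8 fetuses come from 4 twin sets, so they are not fully independent. All 8 arrays lay on 1 slide, the estradiol sulfate fetuses in its first column and the vehicle fetuses in its second, so an effect of the column and one of the infusion cannot be told apart.

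*CGA* encodes the alpha subunit shared by thyrotropin, luteinising hormone and follicle-stimulating hormone, and *TSHB* encodes the beta subunit that makes the alpha subunit into thyrotropin. Both are made by thyrotrophs of the anterior lobe and by cells of the pars tuberalis, the thin sleeve of pituitary tissue that wraps the stalk and touches the floor of the hypothalamus. In sheep the pars tuberalis carries melatonin receptors, and the thyrotropin it makes acts on tanycytes of the hypothalamus to set the local supply of active thyroid hormone with the season. *PRL* encodes prolactin, the hormone of lactotrophs in the anterior lobe.

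The probes are shown because every value below is the brightness of these stretches of DNA, and because some of them share bases. They are printed 5′ to 3′ as given in the scanner files, all 60 bases for *TSHB* and 30 of the 60 bases for the others. The first 30 bases of each *CGA* probe and the whole *TSHB* probe are in lower case, as no part of them was set apart.

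CGA, brighter probe: cctgctttgagaatatactgcagctttatt
CGA, other probe: tcttttcatttggaatgaaatatggcattt
TSHB, only probe: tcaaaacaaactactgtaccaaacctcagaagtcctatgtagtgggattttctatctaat

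The *CGA* probes start at bases 550 and 619 of the transcript given for them, so they do not overlap, and the *TSHB* probe starts at base 410 of its own. The *PRL* probes start at bases 801 and 841. They overlap by 20 bases, in capitals here, so they are not separate measurements of the whole transcript.

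PRL, brighter probe, bases 31 to 60: tccctggcaaACTTCTCTGAGCTTTATAGC
PRL, other probe, bases 1 to 30: ACTTCTCTGAGCTTTATAGCtttttaatgc

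The dimmer *PRL* probe also shares 18 bases, in capitals below, with a probe for *PRP1*, a prolactin-related gene of the ruminant placenta. That *PRP1* probe was not well above background on any of the 8 arrays.

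PRL, other probe, bases 12 to 41: ctttatAGCTTTTTAATGCATGCTtggctc
PRP1 probe, bases 18 to 47: atttacAGCTTTTTAATGCATGCTctgtga

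A level is the processed intensity of a probe as a percentage of the 75th percentile of its array, and "well above background" is the flag that the scanner software gives a spot. The 75th percentile was 1597 to 2282 units in the estradiol sulfate fetuses and 982 to 1633 in the vehicle fetuses. Between 77.0% and 83.1% of probes had this flag in the estradiol sulfate fetuses and between 67.8% and 77.4% in the vehicle fetuses, with vehicle fetus 4 dimmest on both counts. Probes with the flag in 4 or more fetuses were tested, 11748 in all, and all 5 hormone probes were among them. None of the 11748 passed limma's test at an adjusted p under 0.05, which is 0% of them, while 1077 had an unadjusted p under 0.05, 733 (6.24%) higher and 344 (2.93%) lower in the estradiol sulfate fetuses. Scaled to the median in place of the 75th percentile, 345 were higher and 753 lower, so this split depends on the scaling. None of the 5 hormone probes was among those 1077. The groups did not overlap at all for 3.29% of probes on the higher side and 2.68% on the lower side, and for none of the 5 hormone probes. The difference was above 0 for 3 of the 5 hormone probes, those of *CGA* and *TSHB*, and for 58.1% of all probes tested.

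*CGA* varied widely from fetus to fetus in both groups. Its brighter probe stood at 4.27%, 91.9%, 16.1% and 147% in estradiol sulfate fetuses 1 to 4, and at 14.0%, 2.41%, 2.27% and 79.1% in vehicle fetuses 1 to 4. Estradiol sulfate fetuses 2 and 4 and vehicle fetus 4 were high, and estradiol sulfate fetus 1 and vehicle fetuses 2 and 3 were low, so the groups overlapped. The probe was well above background in 4 estradiol sulfate fetuses and in 2 vehicle fetuses. The level differed 34.4-fold between the highest and the lowest fetus of the estradiol sulfate group. Over all fetuses and within the vehicle group the lowest values lay at background, so the measured ratios, 64.6-fold and 34.8-fold, are set in part by background.

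On the log2 scale *CGA* averaged -1.69 ± 2.35 in estradiol sulfate fetuses and -3.50 ± 2.44 in vehicle fetuses (SD, n = 4 each). The difference was 1.82 with an SE of 1.37 and a 95% interval of -1.26 to 4.90, and limma's adjusted p was 0.746. The interval spans 0 and also holds large differences in favour of estradiol sulfate, so these arrays cannot settle the size of a difference. Single fetuses carry this value. It was 1.07 without estradiol sulfate fetus 4, 1.16 without vehicle fetus 3, 1.19 without vehicle fetus 2, 2.77 without estradiol sulfate fetus 1 and 2.87 without vehicle fetus 4, none of them past the adjusted threshold.

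The other *CGA* probe gave the same order of high and low fetuses but for the lowest ones. It stood at 2.28%, 88.9%, 17.3% and 104% in estradiol sulfate fetuses 1 to 4, and at 12.2%, 0.489%, 1.36% and 64.6% in vehicle fetuses 1 to 4. The 2 probes correlated at r = 0.979 over the 8 fetuses, a description of 2 probes on the same arrays. The difference for this probe was 2.36 (SE 1.65, limma's adjusted p = 0.714). With a pooled SD of 2.88 within groups it was the most variable of the 11748 probes tested, against a median SD of 0.235. Part of this SD, and of those of the brighter *CGA* probe and of *TSHB*, comes from fetuses at background.

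*TSHB* split the fetuses in the same way. It stood at 0.360%, 18.8%, 4.92% and 28.0% in estradiol sulfate fetuses 1 to 4, and at 3.12%, 0.545%, 0.556% and 14.2% in vehicle fetuses 1 to 4. It was well above background in estradiol sulfate fetuses 2, 3 and 4 and in vehicle fetuses 1 and 4. The other 3 fetuses lay at background, so no order can be read among them, and they are the 3 fetuses with the lowest *CGA*. The groups overlapped, with estradiol sulfate fetuses 2 and 4 above every vehicle fetus.

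The log2 level of *TSHB* averaged -4.18 ± 2.84 in estradiol sulfate fetuses and -5.71 ± 2.26 in vehicle fetuses (SD, n = 4 each). The difference was 1.53 with an SE of 1.47, a 95% interval of -1.77 to 4.83 and an adjusted p of 0.807 by limma. Its pooled SD within groups was 2.57, the fifth highest of the probes tested. The brighter *CGA* probe was seventh, at 2.39. Setting values near background to a common floor, an alternative chosen after seeing the data, lowered the *TSHB* difference to 0.89. Leaving out 1 fetus moved it between 0.75, without estradiol sulfate fetus 4, and 2.84, without estradiol sulfate fetus 1.

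**Figure D1:**
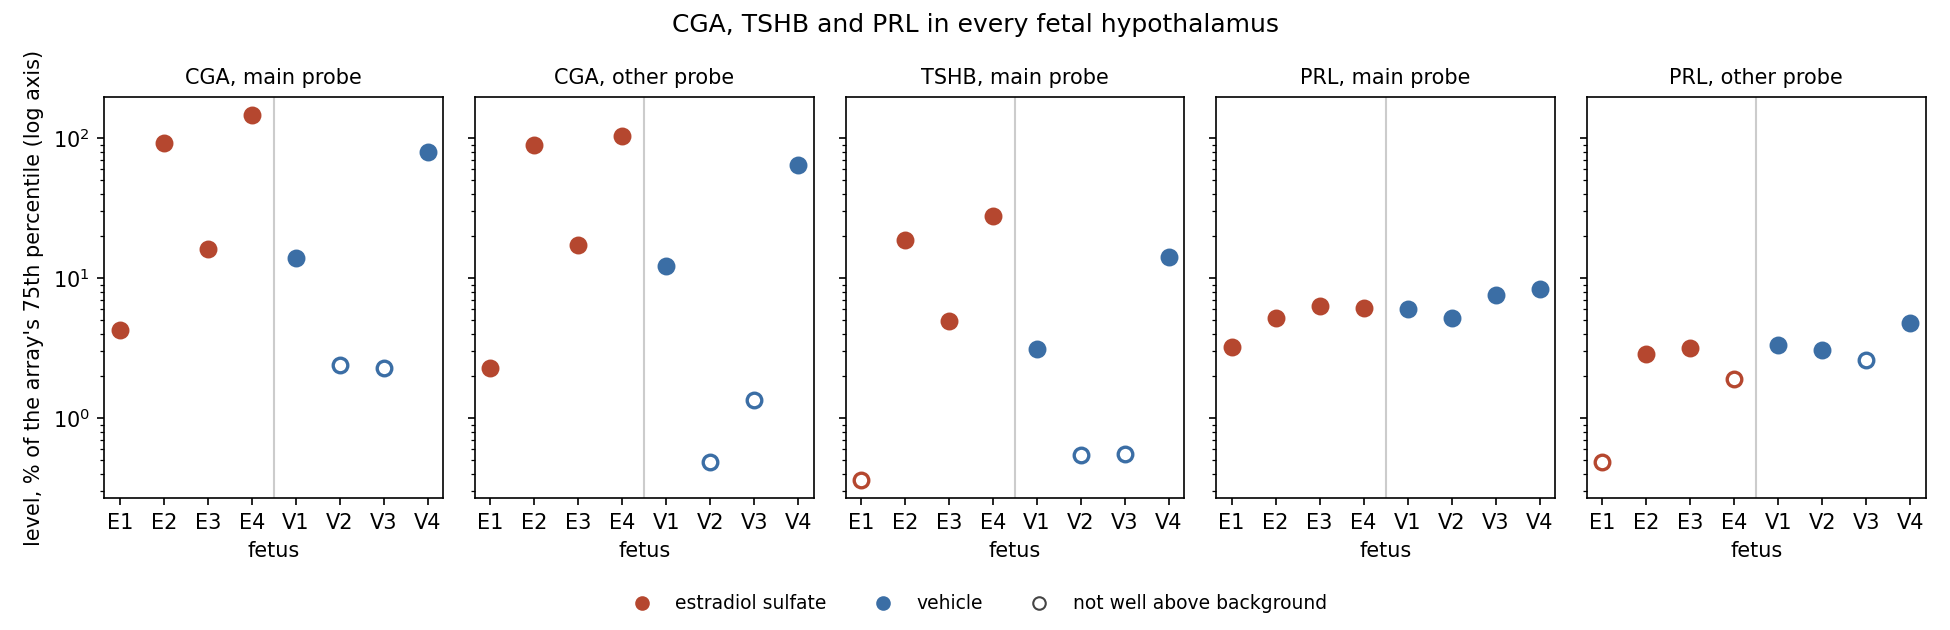
Level of each hormone probe in every fetus, as a percentage of the array's 75th percentile on a log axis, with estradiol sulfate fetuses E1 to E4 left of vehicle fetuses V1 to V4 and open circles for arrays where the probe was not well above background. *CGA* and *TSHB* are high in E2, E4 and V4 and low in E1, V2 and V3, while the brighter *PRL* probe stays between 3.22% and 8.31%.

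*PRL* behaved differently. Its brighter probe stood at 3.22%, 5.22%, 6.34% and 6.12% in estradiol sulfate fetuses 1 to 4, and at 6.04%, 5.19%, 7.52% and 8.31% in vehicle fetuses 1 to 4. It was well above background on all 8 arrays but dim, at 55.2 to 145 units before scaling. The highest fetus was 2.58-fold above the lowest. The groups overlapped, although estradiol sulfate fetus 1 lay below every vehicle fetus.

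The log2 level of *PRL* averaged -4.31 ± 0.45 in estradiol sulfate fetuses and -3.91 ± 0.31 in vehicle fetuses (SD, n = 4 each). The difference was -0.40 with an SE of 0.24, a 95% interval of -0.94 to 0.14 and an adjusted p of 0.663 by limma. Without estradiol sulfate fetus 1 it was -0.18. This probe ranked 2227 of 11748 by SD within groups, at 0.39.

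The dimmer *PRL* probe was printed 5 times on the array and stood at 0.486%, 2.87%, 3.19% and 1.90% in estradiol sulfate fetuses 1 to 4, and at 3.31%, 3.07%, 2.60% and 4.80% in vehicle fetuses 1 to 4. In estradiol sulfate fetus 1 none of its 5 spots was well above background, and the spots of 1 array differed with a coefficient of variation of 12.3% to 42.6%. The level differed 9.87-fold between the highest fetus and estradiol sulfate fetus 1, which lay at background. The pooled SD of this probe within groups was 0.92, rank 229 of 11748, with 3 of 8 arrays not well above background. Its difference was -0.98 (SE 0.53, limma's adjusted p = 0.633). The 2 *PRL* probes correlated at r = 0.852 and gave the same low fetus.

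**Figure D2:**
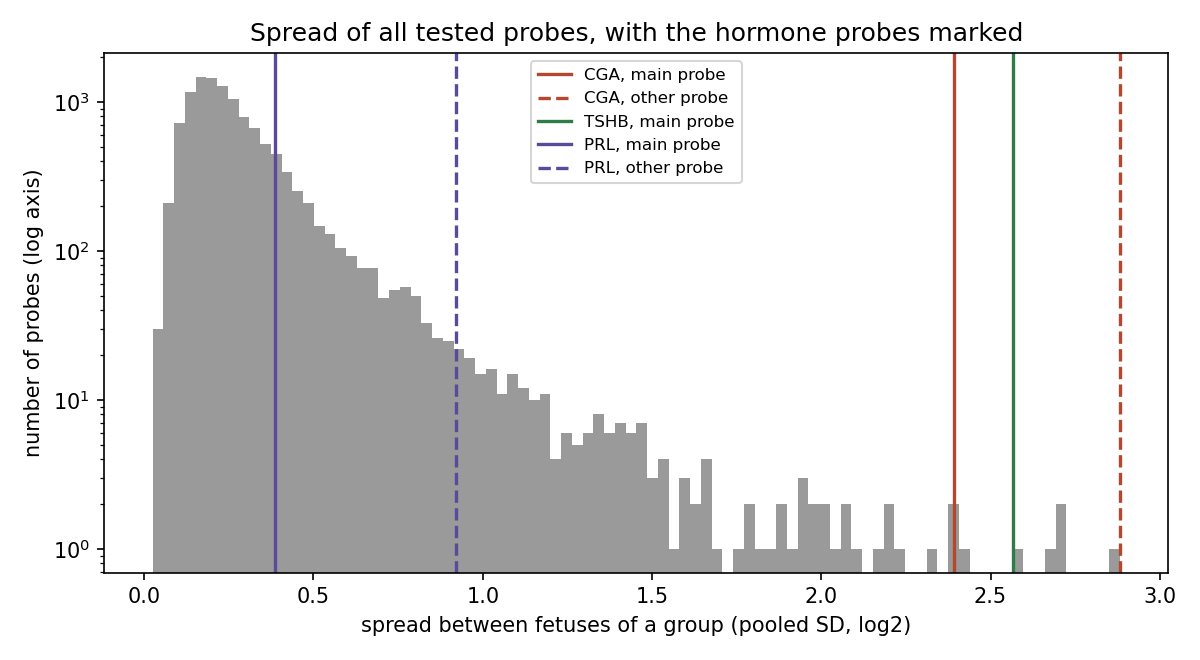
Pooled SD between fetuses of a group on the log2 scale, as a histogram of the probes tested with a log axis for their number, and vertical lines for the hormone probes. The 3 lines for *CGA* and *TSHB* lie between 2.39 and 2.88, in the far right tail, and the *PRL* probes lie at 0.39 and 0.92.

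The next comparison asks whether the hormone genes moved together over fetuses. Over the 5 fetuses with both genes well above background, the order was identical for *CGA* and *TSHB*, with estradiol sulfate fetus 4 highest, then estradiol sulfate fetus 2, vehicle fetus 4, estradiol sulfate fetus 3 and vehicle fetus 1. Among those 5, *CGA* differed 10.5-fold and *TSHB* 8.96-fold between the extremes, while the ratio of *TSHB* to *CGA* differed only 1.69-fold. Over all 8 fetuses Pearson's r was 0.976 (exact permutation p = 0.00151, 0.00454 adjusted over 3 pairs) and Spearman's rho was 0.905 (exact permutation p = 0.00456, adjusted 0.0137). The permutation takes the fetuses as independent, although they come from 4 twin sets.

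The relation was about as close under 2 further readings. Without the 2 fetuses farthest from the median of *CGA*, estradiol sulfate fetus 4 and vehicle fetus 3, r was 0.966. For deviations from the group means, r was 0.976 (permutation p = 0.000149, adjusted 0.000446). This permutation exchanged deviations between the groups after each group was centred, so its p is approximate, not exact. Of 11732 other probes, *TSHB* had the highest correlation with *CGA*. The values lie in steps, 3 high, 2 middle and 3 low fetuses, with the low ones at background for *TSHB*, so r says mainly which fetuses share a step.

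No correlation of *PRL* with the other 2 genes passed the test. With *CGA* r was 0.291 (exact permutation p = 0.525) and rho was 0.167 (exact permutation p = 0.703), and r was 0.591 without the 2 farthest fetuses. For deviations from group means r was 0.631 (approximate permutation p = 0.0972, adjusted 0.0972). With *TSHB* r was 0.436 (exact permutation p = 0.292, adjusted 0.438) and rho was 0.452 (exact permutation p = 0.267, adjusted 0.401). Without estradiol sulfate fetus 1 and vehicle fetus 2 *TSHB* and *PRL* gave r = -0.35, so its sign rests on those fetuses. For deviations from group means the r of *TSHB* and *PRL* was 0.742 (approximate permutation p = 0.0343, adjusted 0.0514).

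**Figure D3:**
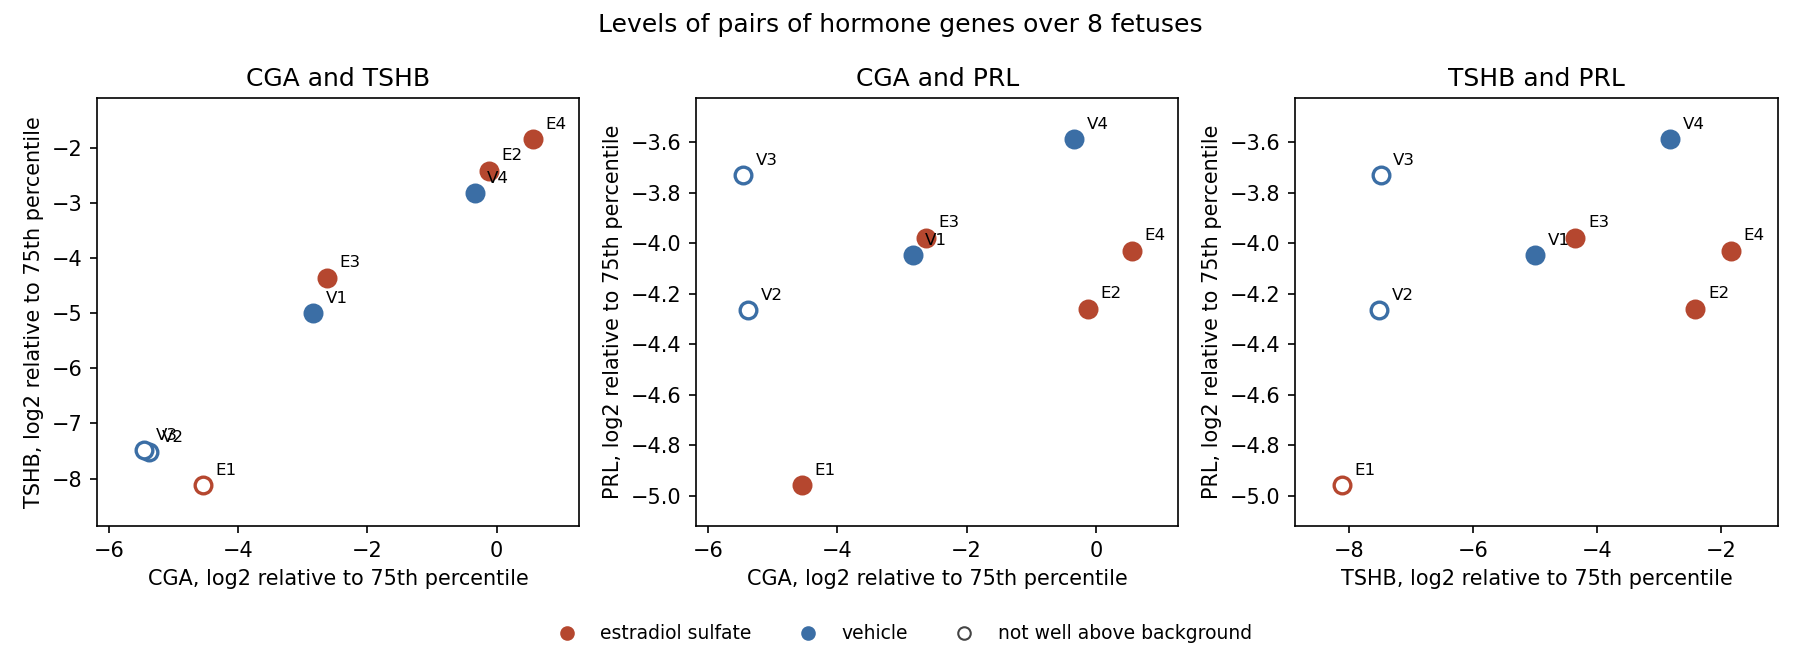
Log2 level of 1 hormone gene against another, relative to the 75th percentile of the array, 1 point per fetus, with estradiol sulfate and vehicle fetuses in different colours and open circles where either probe was not well above background. *CGA* and *TSHB* rise together in steps in both groups (r = 0.976), while the points of *PRL* are scattered more widely (r = 0.291 with *CGA* and 0.436 with *TSHB*).

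RNA was taken from whole pieces of tissue, so fewer cells of a type and less RNA per cell cannot be told apart. The labels give no measure of how much pituitary stalk each piece held. Further genes of the pituitary were therefore read in the same fetuses.

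Of the 8 anterior pituitary hormone genes listed, 7 were named on the array and 5 were tested. Their differences were above 0 for 3 and below 0 for 2, none passed, and their median was 1.28, beside 0.04 over all probes tested. These 5 include *CGA*, *TSHB* and *PRL* themselves, and the others are *POMC*, at 1.28, and *LHB*, at -0.05. Growth hormone (*GH*, 2 probes) and the follicle-stimulating hormone subunit *FSHB* were not well above background in any fetus. The summed level of the list was 2347% to 2959% in estradiol sulfate fetuses and 1716% to 3155% in vehicle fetuses, most of it from the brighter probe of *LHB*, so this sum says little of the other hormones.

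*LHB*, the beta subunit of luteinising hormone, pairs with the same alpha subunit and has 2 probes here of very different brightness, and whether the brighter one measures *LHB* was not tested. The brighter probe stood at 2808%, 1689%, 1844% and 2632% in estradiol sulfate fetuses 1 to 4, and at 2912%, 2101%, 2997% and 1446% in vehicle fetuses 1 to 4. The other probe stood at 12.7%, 14.5%, 10.4% and 11.6% in estradiol sulfate fetuses 1 to 4, and at 12.0%, 15.9%, 15.3% and 10.4% in vehicle fetuses 1 to 4. Neither probe was highest in the fetuses with the highest *CGA*, and their r with *CGA* was -0.49 and -0.54 over 8 fetuses. *POMC*, made by corticotrophs and also by neurons of the hypothalamus, stood at 142%, 1047%, 475% and 112% in estradiol sulfate fetuses 1 to 4, and at 219%, 89.7%, 70.4% and 166% in vehicle fetuses 1 to 4 (limma's adjusted p = 0.628). *POMC* was highest in estradiol sulfate fetuses 2 and 3, not in fetus 4, where *CGA* was highest.

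Of 18 listed pituitary transcription factors and releasing-hormone receptors, 9 were named and 6 tested, with 4 differences above 0 and 2 below, a median of 0.25 and none past the threshold. *POU1F1*, the factor of thyrotrophs, lactotrophs and somatotrophs, was not well above background in any fetus, nor were *NR5A1*, a factor of gonadotrophs, and *GNRHR*, the receptor for gonadotropin-releasing hormone.

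*TRHR*, the receptor for thyrotropin-releasing hormone, stood at 4.65%, 15.1%, 10.12% and 5.53% in estradiol sulfate fetuses 1 to 4, and at 5.71%, 3.19%, 3.37% and 12.0% in vehicle fetuses 1 to 4. It was high in 2 of the 3 fetuses with the highest *CGA* but not in estradiol sulfate fetus 4 (r = 0.759). *TRHR* is also known from neurons. Its difference was 0.60 with an adjusted p of 0.760 by limma. The other tested receptors, *GHRHR*, *CRHR1*, *SSTR2*, *SSTR5* and *ESR1*, had differences of -0.49 to 0.42. Their r with *CGA* ran from -0.402 (*CRHR1*) to 0.446 (*ESR1*).

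Of 11 listed genes of the pars tuberalis and its melatonin response, 4 were named and all 4 tested, 3 above 0 and 1 below, with a median of 0.19 and none past the threshold. The melatonin receptor *MTNR1A* stood at 2.16%, 2.25%, 1.99% and 1.56% in estradiol sulfate fetuses 1 to 4, and at 2.32%, 2.49%, 2.18% and 1.81% in vehicle fetuses 1 to 4. It was well above background in 3 estradiol sulfate fetuses and 1 vehicle fetus, so no order can be read among the other 4 fetuses. With those 4 included, its r with *CGA* was -0.692. The other *MTNR1A* probe was not well above background in any fetus. *TAC1*, which encodes substance P, stood at 447%, 617%, 642% and 665% in estradiol sulfate fetuses 1 to 4, and at 477%, 441%, 470% and 540% in vehicle fetuses 1 to 4 (r = 0.817). The other *TAC1* probe, printed 5 times and well above background on all 8 arrays, had a lower r with *CGA*, 0.506. *TAC1* is also a gene of hypothalamic neurons. *CRY1* of the circadian clock had a difference of 0.09, and *VEGFA*, which encodes a vascular growth factor, one of 0.60 (limma's adjusted p = 0.543). Their r with *CGA* was -0.248 and 0.162.

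The receptor through which thyrotropin acts on tanycytes, *TSHR*, was well above background only in estradiol sulfate fetus 2 and vehicle fetus 1 and was not tested. Of the 13 listed genes of thyroid hormone handling, 4 were named and 2 tested, both above 0 with a median of 0.50. Transthyretin, *TTR*, a carrier of thyroid hormone that the choroid plexus makes in large amounts, stood at 11.3%, 120%, 234% and 630% in estradiol sulfate fetuses 1 to 4, and at 67.6%, 53.6%, 62.1% and 75.5% in vehicle fetuses 1 to 4. It was low in estradiol sulfate fetus 1 and high in fetus 4, as *CGA* was, but vehicle fetus 4 did not stand out (r = 0.658). The thyroid hormone receptor *THRB* differed by 0.11 (limma's adjusted p = 0.851), and its r with *CGA* was -0.640.

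For prolactin, none of the 4 probes of its receptor *PRLR* was well above background in any fetus. Of 13 listed genes of prolactin signalling and control, 2 were named and 1 tested. That gene, *STAT5A*, which carries the prolactin signal in many cells, differed by -0.02 (limma's adjusted p = 0.986), and its other probe by 0.23 (limma's adjusted p = 0.790). *PRLH*, the prolactin-releasing peptide, differed by 0.22 (limma's adjusted p = 0.916). A *PRP2* probe was well above background in 4 estradiol sulfate fetuses and no vehicle fetus, at 2.61%, 2.61%, 1.71% and 2.72% in estradiol sulfate fetuses 1 to 4, and at 1.56%, 1.55%, 0.985% and 1.78% in vehicle fetuses 1 to 4. The vehicle group lay wholly at background, so no fold is given. The probe passed the filter only through the estradiol sulfate fetuses, so no test is read from it. The other *PRP2* probe was not well above background in any fetus.

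**Figure D4:**
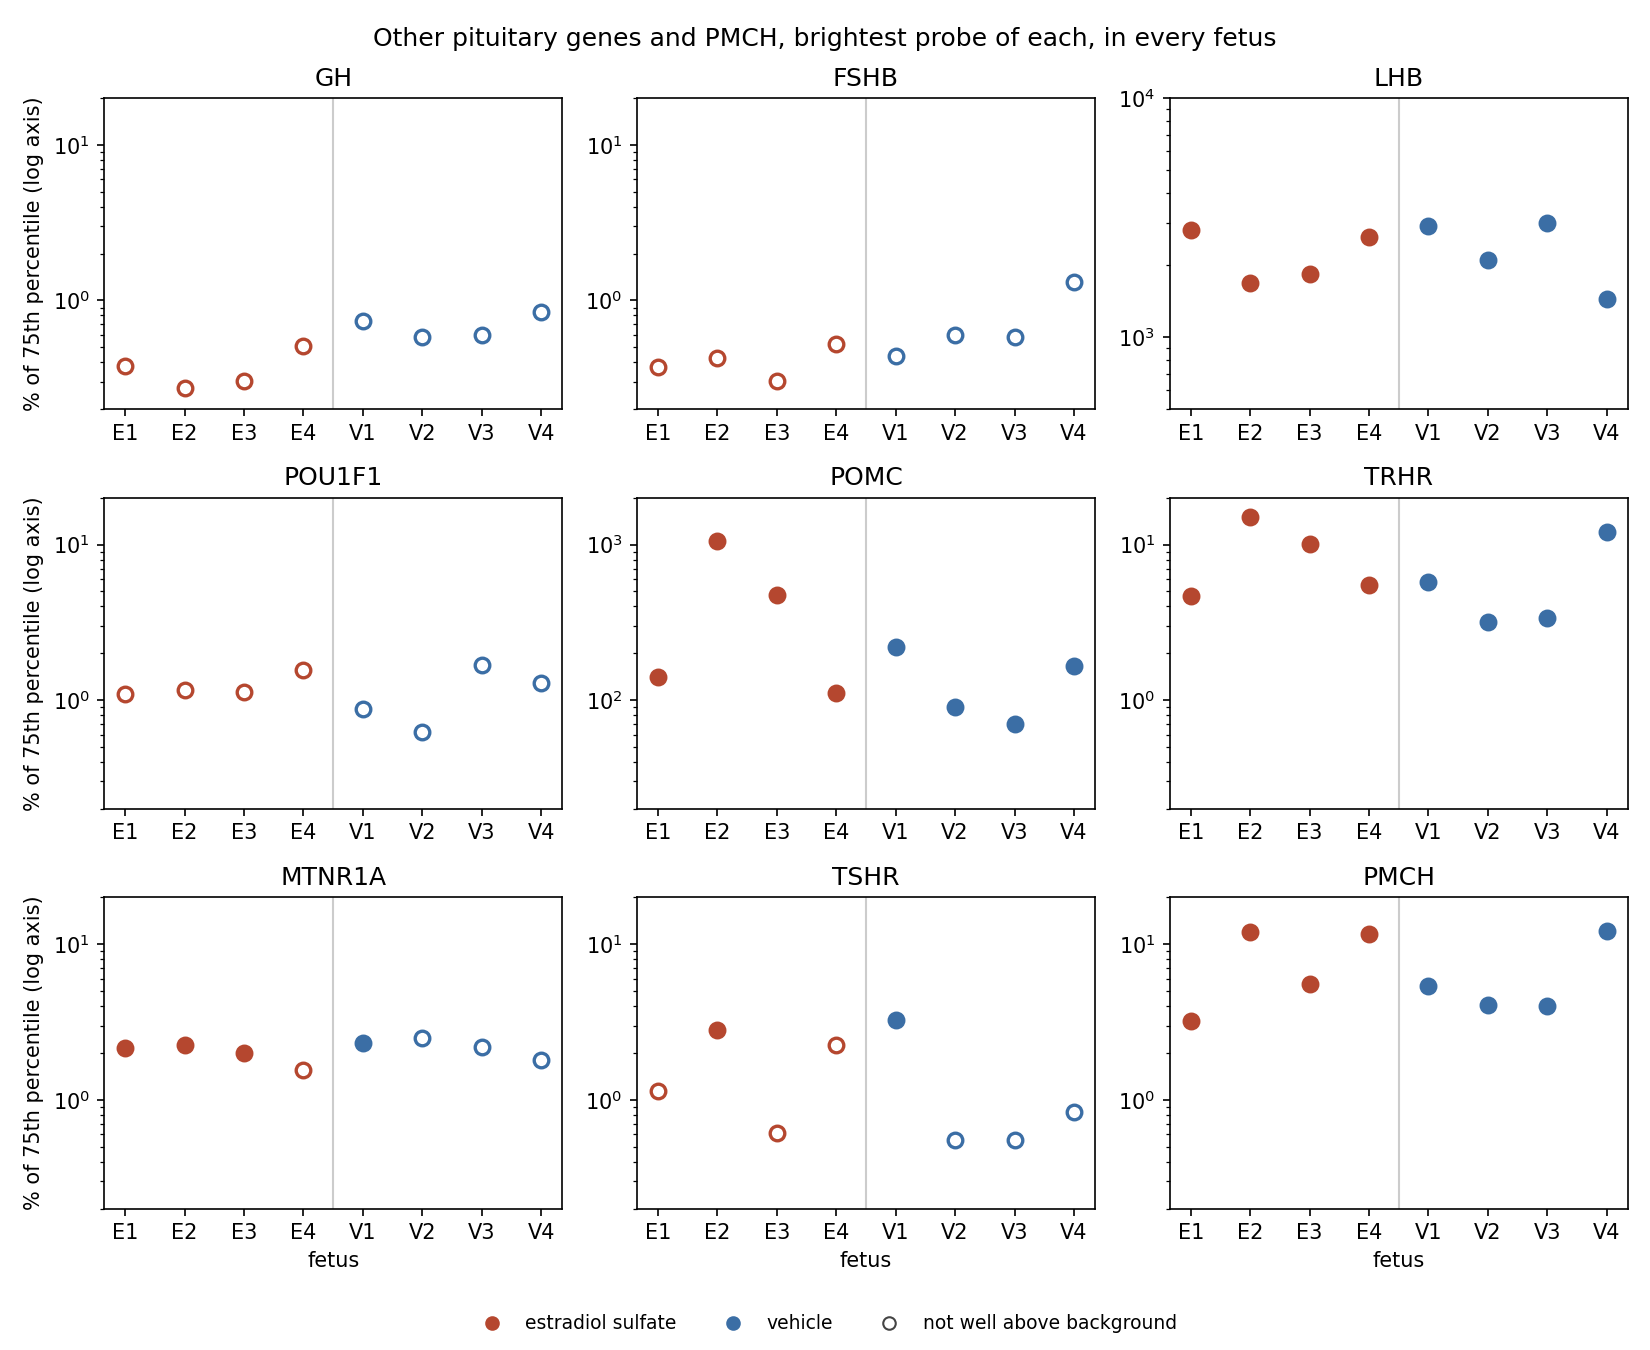
Level of other pituitary genes and of *PMCH* in every fetus, as a percentage of the array's 75th percentile on log axes (the axes for *LHB* and *POMC* cover higher ranges), estradiol sulfate fetuses E1 to E4 left of vehicle fetuses V1 to V4, open circles not well above background. *GH*, *FSHB* and *POU1F1* are open in every fetus, while *PMCH* is high in E2, E4 and V4.

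The named genes whose pattern was most like that of *CGA* were *PMCH*, *IL1A*, *ATP7B*, *LCK* and *CRHBP*, with Pearson's r of 0.955, 0.924, 0.910, 0.884 and 0.875 over the 8 fetuses, among 680 named genes. For *TSHB* they were *PMCH*, *CRHBP*, *IL1A*, *PGFS* and *FZD2*, with r of 0.962, 0.922, 0.908, 0.890 and 0.882. The *PMCH* probe has this name from the array design alone, where it is described only as a sheep cDNA, and the same holds for *PGFS*. *PMCH* is the precursor of melanin-concentrating hormone. Its probe stood at 3.20%, 12.0%, 5.58% and 11.7% in estradiol sulfate fetuses 1 to 4, and at 5.36%, 4.06%, 4.01% and 12.1% in vehicle fetuses 1 to 4. It was high in the same 3 fetuses as *CGA* and *TSHB*, but over a range of 3.80-fold. *CRHBP*, which binds corticotropin-releasing hormone, stood at 30.4%, 151%, 65.9% and 149% in estradiol sulfate fetuses 1 to 4, and at 95.1%, 61.1%, 53.6% and 160% in vehicle fetuses 1 to 4, again highest in those 3 fetuses.

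*PRL* had other genes beside it: *RPN2*, *PYGB*, *SLC2A2*, *ATP5MC2* and *ABCG2*, with r of 0.961, 0.912, 0.904, 0.903 and 0.896. All 5 were lowest in estradiol sulfate fetus 1 and highest in vehicle fetus 4, as *PRL* was, and their ranges were 1.51-fold to 1.95-fold. These correlations are descriptions, since the points share arrays, scaling and tissue pieces.

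Marker lists of other cell types were read beside the hormone genes. The 11 named genes of hypothalamic neurons summed to 1824% to 4876% in estradiol sulfate fetuses and 2638% to 4050% in vehicle fetuses, and all 11 were well above background in some fetus. Meningeal and fibroblast genes (4 of 8 named) summed to 204% to 743% in estradiol sulfate fetuses and 209% to 487% in vehicle fetuses. *HBB*, the 1 named gene of blood cells, was at 342% to 1483% in estradiol sulfate fetuses and 317% to 1157% in vehicle fetuses. The correlation of *CGA* with the 4 fibroblast genes was 0.271 to 0.702, highest for *DCN*, and with *HBB* it was 0.663. With the 11 neuron genes it was 0.955 for *PMCH*, -0.230 for *OXT*, and 0.451 (*AGRP*) to 0.817 (*TAC1*) for the others. These are the brightest probe of each gene, and the other *TAC1* probe gave 0.506. The 3 astrocyte genes did not go 1 way, at -0.72 for *GFAP*, -0.53 for *GJA1* and 0.248 for *AQP4*. The part of these tissues, or of pituitary stalk, in the spread of *CGA* and *TSHB* was not tested.

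**Figure D5:**
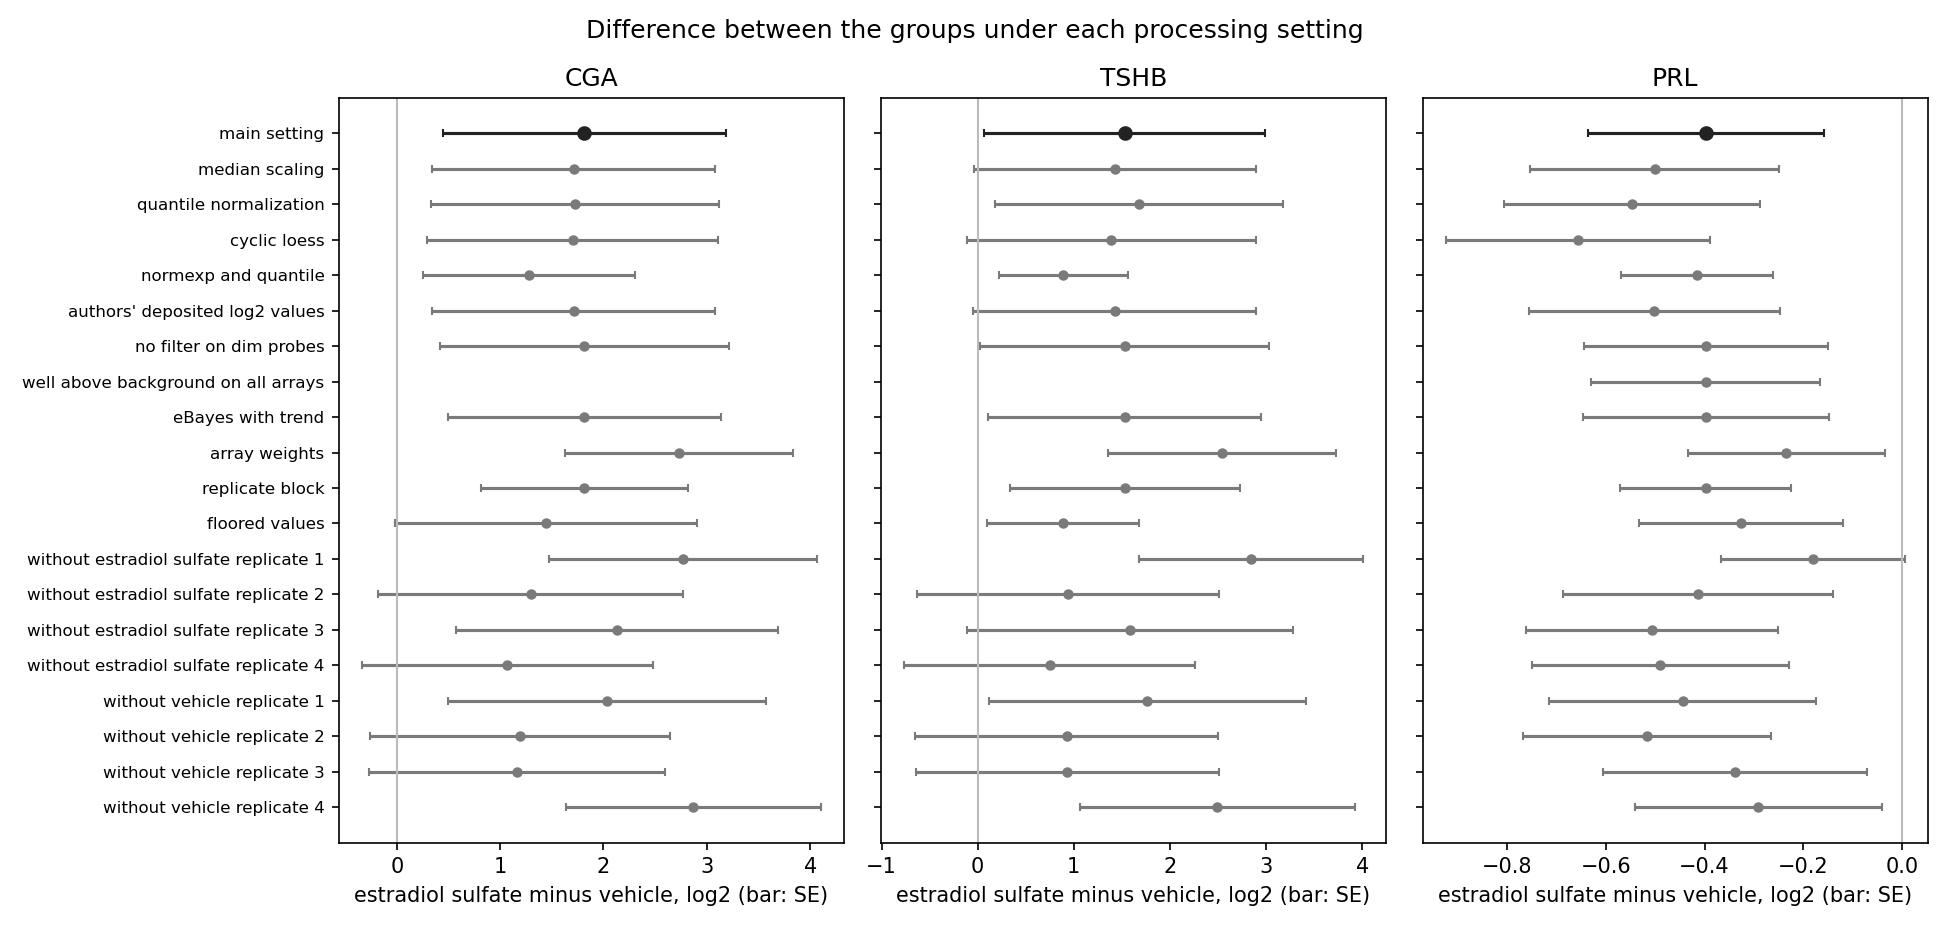
Estradiol sulfate minus vehicle on the log2 scale for *CGA*, *TSHB* and *PRL* under the main and each other processing setting, with bars of 1 SE. *CGA* runs from 1.07 to 2.87, *TSHB* from 0.75 to 2.84, and *PRL* from -0.66 to -0.18. The setting that keeps only probes well above background on all arrays leaves out *CGA* and *TSHB*.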

How the data were processed

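Per the file headers, spots of 1-colour (Cy3) arrays were read with Agilent Feature Extraction, and the deposited processed intensity was background-subtracted within each array and not normalized between arrays. A deposited table of log2 values served as an alternative: within 0.001, 99.667% or more of its values per array are the log2 processed intensity shifted by a constant.

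From the scanner files, control and outlier spots were dropped, repeated spots averaged, and log2 intensity taken minus that of the array's own 75th percentile over probes. Probes well above background on at least 4 of 8 arrays were kept (11748; 3260 removed). The group difference was fitted in limma 3.58.1 (R 4.3.3) with no other term and moderated by eBayes. Its two-sided p-values were adjusted by Benjamini-Hochberg over all probes tested, and the fit was tested on simulated data. The number of arrays, 4 per group, limits the precision. Correlations used exact two-sided permutation over pairings (numpy 2.4.6). For deviations from group means the pairings ran across both groups, so those p-values are approximate. Names came from the array design and were updated with RefSeq symbols (assembly ARS-UI_Ramb_v3.0, names only), which gave 1384 probes a name (9.2%) and 860 gene names. The brightest probe stands for a gene with several.

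The text names all probes of *CGA*, *TSHB* and *PRL*, the members of the pituitary lists, a few members of the other lists, and for each hormone gene the 5 named genes with the highest Pearson's r. Some list members are not reported here and are left out of the counts. The hormone genes and the lists were chosen with earlier results of these data known. The labels do not say which fetuses are co-twins by number, so replicate numbers enter only an alternative fit.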

Additional observations from a re-analysis of the deposited data

How the results depend on the processing

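No alternative changed the direction of a difference or brought a probe past the adjusted threshold, over 19 alternatives for *CGA*, 18 for *TSHB*, 20 for *PRL* and 19 for the count of probes, which was 0 in each. They were median scaling, quantile and cyclic loess normalization, normexp background correction, the authors' log2 values, other filters, a trended prior, array weights, a replicate block, values set to a floor, the mean over a gene's probes, and leaving out each fetus. The filter on all 8 arrays gave no value for *CGA* and *TSHB*. Leaving out 1 fetus, the difference ran from 1.07 to 2.87 for *CGA*, 0.75 to 2.84 for *TSHB* and -0.52 to -0.18 for *PRL*, and the correlation of *CGA* and *TSHB* from 0.968 to 0.996. With values set to a floor, that correlation was 0.945, the lowest of the alternatives. The *PRL* difference was -0.66 with cyclic loess (limma's unadjusted p = 0.0365, adjusted p = 0.715) and -0.69 as the mean over its probes. Limma's unadjusted p was also under 0.05 for *PRL* with normexp (0.0237) and for *TSHB* without estradiol sulfate fetus 1 (0.0395). For *CGA* it was under 0.05 with array weights (0.0349) and without vehicle fetus 4 (0.0477). The correlation of *CGA* and *PRL* ran from 0.0399 to 0.571 when 1 fetus was left out, and that of *TSHB* and *PRL* from 0.0282 to 0.690. With array weights the *CGA* difference was 2.73, and limma's adjusted p was 0.318. With the replicate block, limma's adjusted p was 0.599 for *CGA*, 0.705 for *TSHB* and 0.520 for *PRL*. Deviations of same-numbered fetuses correlated at 0.237, -0.01, 0.191 and 0.247, and those of fetuses with unequal numbers at -0.355 to 0.211. Same-numbered fetuses also lay in the same row of the slide, so a shared row and shared twin sets cannot be told apart here. Equal numbers were thus not shown to mark co-twins. Scaling moved the split of probes with an unadjusted p under 0.05: 733 were higher and 344 lower in estradiol sulfate fetuses in the main setting, and 345 higher and 753 lower with median scaling, which put the median difference of all probes at -0.06 in place of 0.04. At background, *TSHB* in 3 fetuses and *CGA* in 2 have only an upper limit.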
